A study of Mus musculus with 16 samples.

Results

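Calcineurin, the NFAT transcription factors and the Rcan regulators of calcineurin were followed as 9 genes in the left ventricle of old mice with and without past pregnancies. The genes were Rcan1, Rcan2, Ppp3ca, Ppp3cb, Ppp3r1, Nfatc1, Nfatc2, Nfatc3 and Nfatc4, taken by symbol from tables of 55487 genes. All 9 had enough counts to be tested among 17813 genes. The hearts came from C57Bl/6J mice that were 24 months old. Of these, 8 were multiparous, with more than 3 past pregnancies, and 8 were virgin. Neither group had received a treatment or carried a genetic change named in the labels. Library names of the multiparous hearts carry the code MP (multiparous 3, 4, 6 and 8) or P (multiparous 1, 2, 5 and 7), with no meaning given, and all virgin hearts carry a code of their own, so parity cannot be told apart from what the codes stand for.

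Calcineurin is a phosphatase switched on by calcium and calmodulin. It is built of a catalytic A subunit, encoded by Ppp3ca, Ppp3cb or Ppp3cc, and a calcium-binding B subunit, encoded in the heart by Ppp3r1. Its best-known substrates are the NFAT factors, which enter the nucleus once dephosphorylated and are sent back out by kinases. In heart muscle this route is known for driving hypertrophic growth. The Rcan proteins bind calcineurin and restrain it, and Rcan1 is itself switched on by NFAT from an internal promoter, so its transcript is widely used as a readout of the pathway.

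Rcan1 (ENSMUSG00000022951.16) occupies bases 92391953 to 92470867 of chromosome 16 (GRCm38) and is read from the minus strand. The RefSeq starts used here (GRCm38.p6) include 2 in it, 66091 bases apart. GENCODE M21 annotates 7 transcripts, and its bounds of the gene begin upstream of both starts. The gene counts analysed here do not separate transcripts by start. The 250 bases before each start are shown because NFAT is known to act at the internal one. Both are written 5′ to 3′ on the strand of the gene, and capitals mark each match to the NFAT core GGAAA or its complement TTTCC.
Rcan1 upstream start, chr16:92466170-92466419: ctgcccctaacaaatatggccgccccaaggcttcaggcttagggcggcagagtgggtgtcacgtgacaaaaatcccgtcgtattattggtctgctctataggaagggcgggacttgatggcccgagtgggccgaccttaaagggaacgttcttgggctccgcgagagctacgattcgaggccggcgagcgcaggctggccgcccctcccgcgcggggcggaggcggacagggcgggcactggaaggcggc
Rcan1 internal start, chr16:92400079-92400328: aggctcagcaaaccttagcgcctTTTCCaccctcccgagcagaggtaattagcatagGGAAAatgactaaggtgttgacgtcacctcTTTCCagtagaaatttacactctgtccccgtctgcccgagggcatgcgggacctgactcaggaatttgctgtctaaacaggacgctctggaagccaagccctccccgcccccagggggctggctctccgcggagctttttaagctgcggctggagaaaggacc
Neither window overlaps an annotated exon of the gene. The window of the internal start, which lies in an intron of the longer transcripts, held the core 3 times, at 227, 193 and 163 bases before the start. It also held 1 match to the AP-1 motif TGANTCA, the partner site of many NFAT elements, at 110 bases before the start. The window of the upstream start held neither motif. Among 32841 windows of this length before RefSeq starts, 55.6% held the core at least 1 time, 6.39% held it at least 3 times and 6.75% held the AP-1 motif, on either strand. A core this short is also part of motifs of other factors such as the ETS family, and a match is only a match of letters. Of the members, 7 had windows in the table, 12 windows in all, of which 7 held the core and 2 the AP-1 motif. The other AP-1 match was in the window of an internal start of Rcan2, 25 bases before it.

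In GRCm38, Rcan2 (ENSMUSG00000039601.16) lies at chr17:43801351-44039516. The catalytic subunit genes are Ppp3ca (ENSMUSG00000028161.17) at chr3:136670124-136937727 and Ppp3cb (ENSMUSG00000021816.11) at chr14:20499364-20546573, and Ppp3r1 (ENSMUSG00000033953.10) lies at chr11:17159263-17200375. The NFAT genes are Nfatc1 (ENSMUSG00000033016.16) at chr18:80606205-80713071, Nfatc2 (ENSMUSG00000027544.16) at chr2:168476410-168601657, Nfatc3 (ENSMUSG00000031902.10) at chr8:106058840-106130537 and Nfatc4 (ENSMUSG00000023411.12) at chr14:55823144-55833943. GENCODE M21 annotates 2 to 11 transcripts for each of the 9 genes, which the counts do not separate.

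Gene counts came to between 34560606 and 58890976 in 15 hearts and 228325238 in virgin 8, and each member had at least 194 counts in every library. The 8 ventricular cardiomyocyte markers summed to a median of 52450 CPM (counts scaled to library size) in multiparous and 53420 CPM in virgin hearts, and all 8 means were lower in the multiparous group. On the higher side stood the means of all 6 endocardial (median sums 141 against 87.9 CPM), all 6 macrophage (202 against 187 CPM) and 5 of 6 fibroblast markers (1703 against 1381 CPM). So did 6 of 7 tested T cell markers (5.29 against 4.55 CPM). Of 5 B cell markers 3 were higher and 2 lower (29.99 against 12.7 CPM), with most of the sum from Ighm (medians 24.2 against 10.2 CPM). Of 4 tested atrial markers 2 were higher and 2 lower (68.1 against 33.5 CPM), with most of the sum from Nppa. No marker of the 13 lists passed, and the part of these cell types in the members' values was not tested. The kidney tubule sum and the neuron and glia sum served only as covariates in alternative fits. The 12 kidney tubule markers summed to a median of 3.78 CPM in multiparous hearts against 44.1 CPM in virgin hearts, and the mean of each of the 10 tested was lower in the multiparous group. The 8 T cell markers summed to 27.7 CPM in multiparous 8 and 17.6 CPM in virgin 1, and to 3.42 to 6.45 CPM in the other 14 libraries. Sums of the 8 neuron and glia markers, of which 4 were tested, lay between 64.7 and 87.5 CPM (multiparous) and between 58.5 and 79.0 CPM (virgin). Most of that level was Camk2a, with medians of 55.55 and 55.2 CPM. The group medians of the neuronal genes Snap25, Syt1 and Rbfox3 were at most 0.203 CPM, so the neuron covariate does not measure neurons alone. The 6 skeletal muscle markers stayed at or below 2.14 CPM. In whole tissue, fewer cells of a type and less RNA per cell cannot be told apart.

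Set against exon length, Rcan2 was the most abundant member by far. It measured 145.7 ± 12.8 CPM per kilobase of exon (SD, n = 16 libraries), against 27.9 ± 6.1 for Rcan1 and 24.4 ± 1.2 for Ppp3r1. The catalytic subunit genes followed, Ppp3cb at 10.4 ± 0.7 and Ppp3ca at 7.71 ± 0.41 CPM per kilobase. The NFAT genes were lowest, with Nfatc3 at 4.54 ± 0.16, Nfatc1 at 4.40 ± 0.38, Nfatc2 at 2.67 ± 0.23 and Nfatc4 at 1.06 ± 0.12 CPM per kilobase. In this order every gene lay above the whole range of the next, except in 2 places. Rcan1 exceeded Ppp3r1 in 10 of 16 libraries, and Nfatc3 exceeded Nfatc1 in 11 of 16. These levels rest on the union of annotated exons, so a gene whose heart transcript leaves out long exons is understated.

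**Figure D1:**
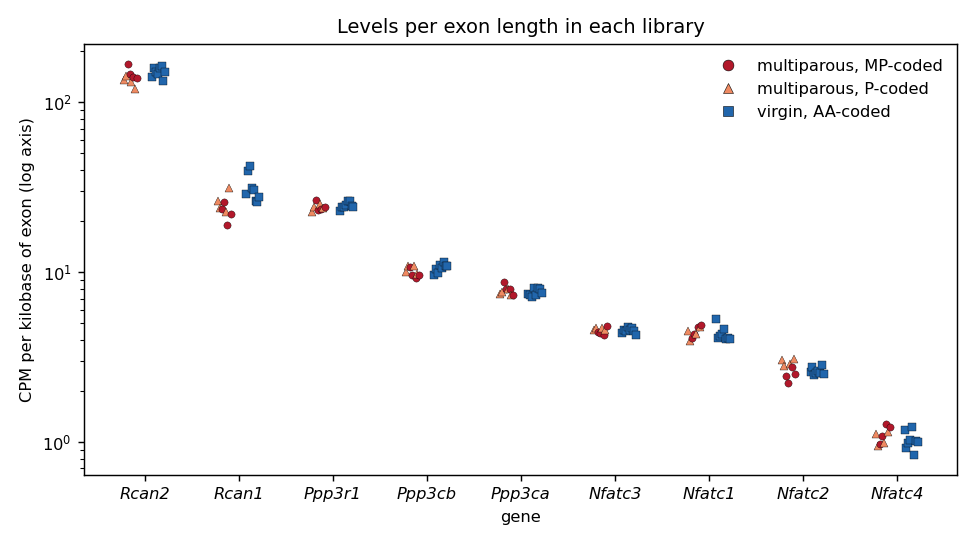
Level of each gene in each library, in CPM per kilobase of annotated exon on a log axis, in order of the mean over 16 libraries. Rcan2 sits between 120 and 169 CPM per kilobase, above every other gene, and the points of Rcan1 overlap those of Ppp3r1.

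By level per exon length, Rcan2 made up 83.6% ± 2.8 of the 3 Rcan genes in multiparous and 81.3% ± 2.5 in virgin hearts, Rcan1 14.5% ± 2.7 and 17.0% ± 2.6, and Rcan3 under 2.1% in every library (SD, n = 8 each). Of the 3 catalytic genes, Ppp3cb held 36.9% ± 1.6 in multiparous and 37.5% ± 1.3 in virgin hearts and Ppp3ca 28.5% ± 1.1 and 26.9% ± 0.7. The remainder was Ppp3cc, which is not a member. Of Nfatc1 to Nfatc4, Nfatc3 held 35.6% ± 1.8 and 36.2% ± 1.8 and Nfatc1 34.7% ± 1.5 and 34.7% ± 2.2, with Nfatc4 at 8.51% ± 0.74 and 8.18% ± 0.75. These shares are descriptions and were not tested.

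Whether past pregnancies leave a mark on the pathway was asked by comparing the 8 multiparous with the 8 virgin hearts. No member passed at an edgeR adjusted p under 0.05, where 0.0112% of all tested genes did, and none passed in DESeq2 or limma voom. At an unadjusted p under 0.05 stood 1 of 9 members, Rcan1, against 8.12% of all tested genes in either direction and 4.09% in the lower direction. In 4 of 9 members the mean was lower in multiparous hearts, against 51.4% of all tested genes. In 0 of 9 were the groups free of overlap, against 0.0337% of all genes. The median log2 fold change of the members was 0.01, against −0.0030 over all genes. Apart from Rcan1, the 95% intervals of the members stayed between −0.22 and 0.26 on the log2 scale. No label ties each library to its own animal, and the p-values reflect only how these libraries vary.

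Rcan1, the feedback inhibitor of calcineurin, had the largest difference of the 9. It measured 74.9 ± 11.1 CPM in the multiparous group against 97.2 ± 19.0 CPM in the virgin group (SD, n = 8 each). The P-coded hearts measured 80.5, 74.0, 69.8 and 96.4 CPM, and the MP-coded hearts 72.2, 80.0, 58.8 and 67.6 CPM. The virgin hearts ranged from 79.6 CPM in virgin 7 through a median of 91.3 to 122 CPM in virgin 2 and 131 CPM in virgin 3. Each of the 8 multiparous hearts was under the mean of the virgin hearts, as in 3.53% of all tested genes, and 5 were under the lowest virgin heart. The groups overlapped through multiparous 1, 4 and 7, and only virgin 2 and virgin 3 lay above every multiparous heart.

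The log2 fold change of Rcan1 was −0.37 (SE 0.11, 95% interval −0.60 to −0.15), a level 0.772 times that of virgin hearts. Its unadjusted p was 0.00285, rank 189 of 17813 genes, and its edgeR adjusted p of 0.266 did not pass. Over 31 other ways of fitting the data the log2 fold change ran from −0.48 to −0.28, and the adjusted p from 0.0697 (DESeq2) to 0.761 (with the kidney marker sum as a covariate, log2 fold change −0.41). These outer values of the fold change came from the MP-coded hearts alone (−0.48, edgeR adjusted p = 0.341) and the P-coded hearts alone (−0.28, edgeR adjusted p = 0.622), both set against the same virgin libraries. Leaving out virgin 3, the highest library, gave −0.30.

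Rcan2, the relative of Rcan1 that is best known from brain and muscle, measured 617 ± 61 CPM in the multiparous group against 657 ± 45 CPM in the virgin group. Multiparous libraries ran from 525 CPM in multiparous 7 through a median of 615 to 739 CPM in multiparous 3, and virgin libraries from 581 through 660 to 714 CPM. The ranges overlapped almost fully, and the log2 fold change was −0.09 (SE 0.06, 95% interval −0.22 to 0.04, edgeR adjusted p = 0.765). Against the same virgin hearts, the P-coded hearts alone gave −0.18 (unadjusted p = 0.0144, edgeR adjusted p = 0.425) and the MP-coded hearts alone −0.0053. It was −0.06 without multiparous 7 or without scaling factors, and −0.03 with the kidney covariate. Rcan3, the family's other member, measured 16.4 ± 1.1 and 16.5 ± 1.1 CPM (log2 fold change −0.01, SE 0.05).

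**Figure D2:**
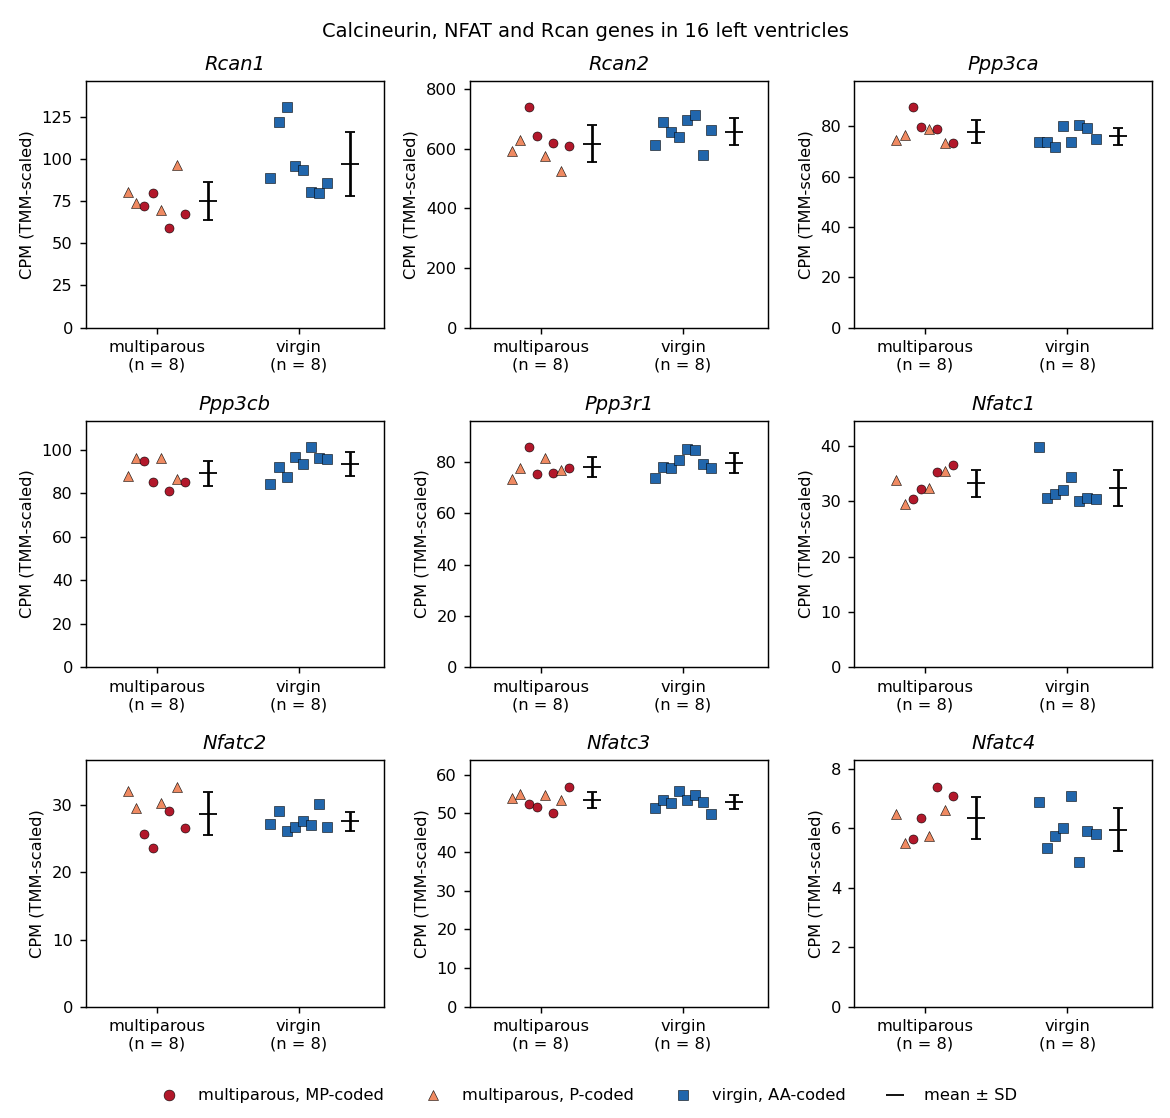
CPM of the 9 genes in each library, with points shaped by library code and bars giving mean ± SD of 8 libraries per group, each axis starting at 0. All 8 multiparous Rcan1 points lie below the virgin mean of 97.2 CPM, while the groups overlap in every panel.

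The genes of the phosphatase itself differed little between the groups. Ppp3cb, which encodes the beta isoform of the catalytic subunit that is known for its part in cardiac hypertrophy, measured 89.1 ± 5.8 CPM in the multiparous group against 93.5 ± 5.4 CPM in the virgin group. Its libraries ran from 81.2 through a median of 87.2 to 96.4 CPM in the multiparous and from 84.5 through 94.7 to 101 CPM in the virgin group, so only 1 multiparous heart lay below all virgin ones. The log2 fold change was −0.07 (SE 0.04, 95% interval −0.16 to 0.02, edgeR adjusted p = 0.759). It was −0.13 with the kidney covariate and −0.11 in the MP-coded hearts alone, and −0.03 in the P-coded hearts alone or without scaling factors.

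Ppp3ca, the alpha catalytic subunit, measured 77.9 ± 4.7 CPM in the multiparous group against 76.0 ± 3.4 CPM in the virgin group. Multiparous hearts ran from 73.4 through 77.8 to 87.5 CPM and virgin hearts from 71.8 through 74.4 to 80.6 CPM, and multiparous 3 was the only library outside the range of the other group on the high side. On the log2 scale it stood 0.04 higher (SE 0.04, 95% interval −0.05 to 0.12), which turned to −0.0061 in the P-coded hearts alone. It was 0.01 without multiparous 3, 0.02 with the neuron covariate, 0.07 without scaling factors, 0.08 in the MP-coded hearts alone and 0.10 with the kidney covariate. Ppp3r1, the calcium-binding B subunit, measured 78.0 ± 4.0 CPM and 79.7 ± 3.7 CPM, with libraries at 73.3 to 85.9 and 74.0 to 85.1 CPM. Its log2 fold change of −0.03 (SE 0.04, 95% interval −0.11 to 0.05) turned to 0.0038 without scaling factors. It was −0.05 without multiparous 3 or with the kidney covariate, and −0.02 in the MP-coded hearts alone or without any 1 of multiparous 1, virgin 5 and virgin 6. Of its 3228 exonic bases in GENCODE M21, 462 are shared on the same strand with Wdr92, at a mean of 8.80 CPM. There a read could come from either gene, and how such reads were counted is not known here.

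Among family genes outside the 9, Ppp3cc, the gamma catalytic subunit, measured 28.4 ± 1.8 CPM in the multiparous group against 30.1 ± 0.9 CPM in the virgin group. In 5 multiparous hearts it lay below the lowest virgin library, and all 8 virgin hearts lay above the multiparous mean. It did not pass either (log2 fold change −0.08, SE 0.04, unadjusted p = 0.046, edgeR adjusted p = 0.607). Ppp3r2, the B subunit known from testis, was too low to test, with at most 0.0209 CPM in a library.

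Of the 4 NFAT genes none passed. Nfatc3, a mediator of calcineurin signals in heart muscle, measured 53.5 ± 2.1 CPM in the multiparous group against 53.0 ± 1.8 CPM in the virgin group, with all libraries between 49.9 and 56.9 CPM. Its coefficient of variation was 3.95% in multiparous and 3.45% in virgin hearts, and in the multiparous group 5.85% of 13843 genes with a mean of at least 1 CPM varied less. The log2 fold change was 0.01 (SE 0.03, 95% interval −0.05 to 0.08, edgeR adjusted p = 0.957), and it took a negative sign in 3 of 31 alternatives. With 1 library left out it ran from 0.00086 (without multiparous 8) to 0.03 (without multiparous 6), and it was 0.05 without scaling factors. In 219 of its 11726 exonic bases it lies opposite Esrp2, which averaged 0.851 CPM.

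Nfatc4, the NFAT gene first tied to heart growth through the factor Gata4, was the lowest at 6.34 ± 0.69 CPM in the multiparous group against 5.95 ± 0.73 CPM in the virgin group. Its libraries ran from 5.50 to 7.40 and from 4.86 to 7.08 CPM, and 2 multiparous hearts lay above all virgin ones. The log2 fold change was 0.09 (SE 0.08, 95% interval −0.08 to 0.26, edgeR adjusted p = 0.835). It was 0.15 in the MP-coded and 0.03 in the P-coded hearts alone, and 0.06 without multiparous 6 or virgin 6. Nfatc1, known from the endocardium of the forming valves and from lymphocytes, measured 33.3 ± 2.5 CPM and 32.4 ± 3.3 CPM (log2 fold change 0.04, SE 0.06, 95% interval −0.09 to 0.16). Its multiparous hearts ran from 29.6 through 33.2 to 36.6 CPM, while 6 virgin hearts lay between 30.1 and 32.1 CPM and virgin 1 reached 39.8 CPM. Virgin 1 also had the highest summed T cell, B cell and macrophage markers of its group (17.6, 55.1 and 310 CPM). Their part in that value was not tested. Without virgin 1 the log2 fold change was 0.08 (unadjusted p = 0.0964, edgeR adjusted p = 0.508). It was 0.06 without virgin 1 and multiparous 8, the libraries with the highest T cell sums, and 0.06 without multiparous 2. Without any 1 of multiparous 6, 7 and 8 and virgin 6 and 8 it was 0.02. It was 0.07 without scaling factors or with the neuron covariate, 0.06 in the MP-coded hearts alone and 0.01 in the P-coded hearts alone.

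Nfatc2, a factor best known from T cells, measured 28.8 ± 3.2 CPM in the multiparous group against 27.6 ± 1.4 CPM in the virgin group. Multiparous hearts ran from 23.6 through 29.4 to 32.8 CPM and virgin hearts from 26.2 through 27.1 to 30.3 CPM, so that 2 multiparous libraries lay below and 3 above the whole virgin range. The log2 fold change was 0.06 (SE 0.06, 95% interval −0.07 to 0.19, edgeR adjusted p = 0.852). It was 0.17 in the P-coded hearts alone (edgeR adjusted p = 0.24), −0.07 in the MP-coded hearts alone and −0.09 with the kidney marker sum as a covariate. Without multiparous 1 or 7 it was 0.03, and without multiparous 4 or without scaling factors 0.10. Nfat5, the relative that answers to osmotic stress and not to calcineurin, measured 94.4 ± 7.4 and 88.6 ± 5.5 CPM (log2 fold change 0.09, SE 0.05, edgeR adjusted p = 0.681). By code Nfat5 measured 89.3 ± 7.3 CPM in MP-coded and 99.5 ± 2.5 CPM in P-coded hearts. The log2 fold change between codes was −0.15 (SE 0.06, edgeR unadjusted p = 0.031, adjusted p = 0.391).

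**Figure D3:**
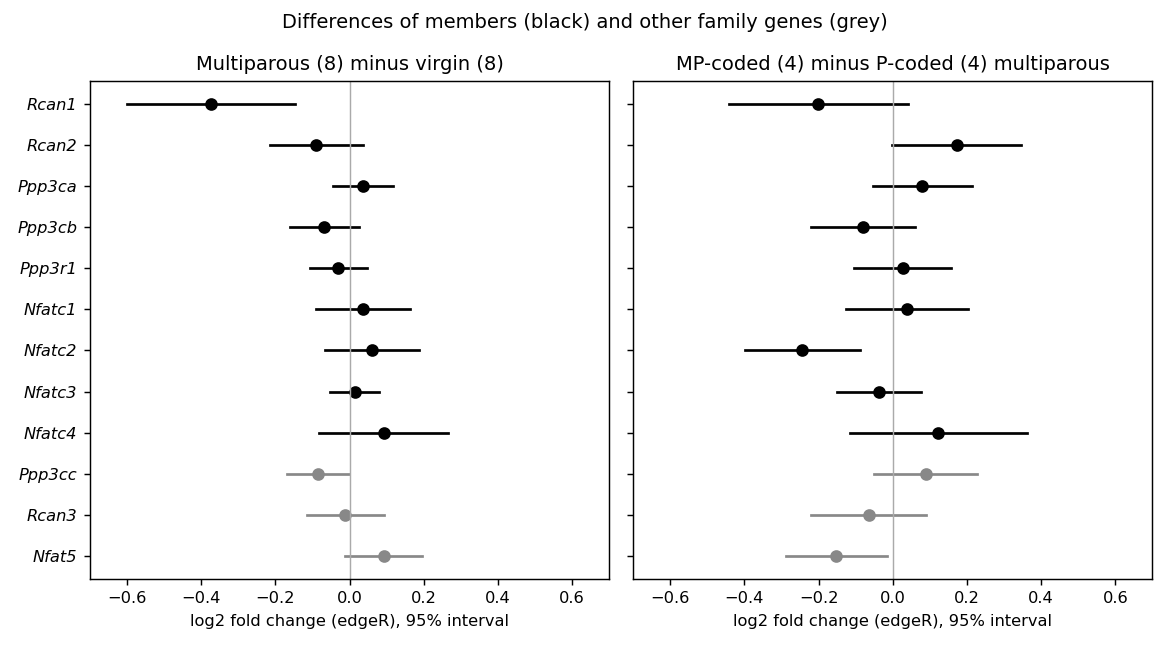
Log2 fold changes with 95% intervals for the 9 genes (black) and 3 tested relatives (grey), on the left multiparous minus virgin and on the right MP-coded minus P-coded multiparous hearts. Among the 9, only the interval of Rcan1 on the left (−0.60 to −0.15) and that of Nfatc2 on the right (−0.40 to −0.09) lie clear of 0, before any adjustment.

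The wider pathway was read from 7 lists with 72 genes, 69 of them tested. None passed at an edgeR adjusted p under 0.05, and the smallest adjusted p was 0.0745. At an unadjusted p under 0.05 stood 5 higher and 5 lower genes, 14.5% of those tested against 8.12% of all genes. Their median log2 fold change was −0.03. Since the lists were chosen with earlier results of these data known, these counts are descriptions.

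Among 12 genes of calcium entry and calmodulin, the multiparous mean was higher for 7 and lower for 5, against 51.4% of all genes lower (median log2 fold change 0.05). The T-type channel gene Cacna1h measured 16.2 ± 2.1 against 11.7 ± 1.9 CPM (log2 fold change 0.47, SE 0.09, edgeR adjusted p = 0.0745). Atp2b4, a calcium pump of the plasma membrane that is known to hold calcineurin in check, measured 48.9 ± 4.8 against 43.9 ± 4.4 CPM (log2 fold change 0.16, edgeR adjusted p = 0.548). Trpc1, a cation channel, measured 11.8 ± 1.0 against 11.1 ± 0.8 CPM.

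Of 12 tested inhibitors, anchors and turnover factors of calcineurin, 11 had lower means (median −0.05), against 51.4% of all genes. Myoz2, whose protein calsarcin tethers calcineurin at the Z-disc, measured 685 ± 45 CPM in the multiparous group against 742 ± 46 CPM in the virgin group (log2 fold change −0.12, unadjusted p = 0.0275, edgeR adjusted p = 0.54). The anchor Akap6 measured 441 ± 28 against 472 ± 47 CPM. The exception was Fbxo32, a ubiquitin ligase that targets calcineurin, at 243 ± 30 against 218 ± 28 CPM (log2 fold change 0.16, edgeR adjusted p = 0.652). Of 14 NFAT kinases and export factors, 11 had lower means (median −0.04), against the same 51.4%. Mapk8 (JNK1) measured 31.4 ± 1.6 against 33.7 ± 1.8 CPM and Mapk14 (p38 alpha) 78.4 ± 5.9 against 72.7 ± 4.3 CPM, both at an unadjusted p under 0.05. Dyrk1b measured 32.0 ± 1.8 against 33.7 ± 1.4 CPM.

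Of 9 partner factors of NFAT, 6 had lower means, against 51.4% of all genes, and none reached an unadjusted p under 0.05. Mef2c measured 122 ± 10 against 128 ± 7 CPM, Mef2a 310 ± 15 against 297 ± 25 CPM and Fos 2.52 ± 1.09 against 3.27 ± 2.29 CPM. Of 9 other calcineurin substrates, 6 had higher and 3 lower means, against 51.4% of all genes lower. Among them Phlpp1, a phosphatase of AKT, measured 47.0 ± 2.8 against 43.5 ± 3.8 CPM (unadjusted p = 0.0452), the CREB coactivator Crtc1 19.5 ± 1.7 against 18.3 ± 0.7 CPM and Dnm1l, the fission enzyme of mitochondria, 159 ± 11 against 166 ± 11 CPM.

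Of 10 genes known to be induced with calcineurin and NFAT activity in heart, 4 means were higher and 6 lower, against 51.4% of all genes lower. Their median log2 fold change was −0.12. Nppb, the B-type natriuretic peptide, measured 138 ± 46 CPM in the multiparous group against 211 ± 78 CPM in the virgin group (log2 fold change −0.61, SE 0.21, edgeR adjusted p = 0.394). Vegfa, the endothelial growth factor, measured 223 ± 26 against 258 ± 18 CPM (log2 fold change −0.21, SE 0.06, edgeR adjusted p = 0.279). Nppa, the atrial natriuretic peptide, stood on the other side at 66.6 ± 26.0 against 39.5 ± 26.4 CPM (log2 fold change 0.75, SE 0.30, edgeR adjusted p = 0.511).

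Within the multiparous group, the 4 MP-coded and 4 P-coded hearts were compared. No member passed at an edgeR adjusted p under 0.05, against 0.121% of 18123 tested genes, and 1 of 9, Nfatc2, stood at an unadjusted p under 0.05 in the lower direction, against 11.0% of all genes in either direction and 5.07% in the lower one. In 4 of 9 members the MP-coded mean was lower, against 49.4% of all genes. No member passed in DESeq2 or limma voom either. Nfatc2 measured 25.8, 23.6, 29.2 and 26.6 CPM in the MP-coded hearts and 32.2, 29.7, 30.3 and 32.8 CPM in the P-coded hearts. All MP-coded libraries lay below all P-coded ones, which 5.88% of all tested genes did in either direction and 2.92% in this one. The log2 fold change was −0.24 (SE 0.07, 95% interval −0.40 to −0.09, unadjusted p = 0.00514, edgeR adjusted p = 0.225). The T cell markers did not follow this order, at 3.42 to 27.7 CPM in the MP-coded and 4.30 to 6.11 CPM in the P-coded hearts. Kidney tubule marker sums did separate the codes, at 5.147 CPM or more in MP-coded and 2.408 CPM or less in P-coded hearts. So did the low skeletal muscle sums, at 1.575 CPM or more and 1.354 CPM or less. The sums of all other marker lists overlapped between the codes. Of these, liver sums ran from 3.39 to 35.3 CPM in MP-coded and from 2.71 to 316 CPM in P-coded hearts. They overlapped only through multiparous 5, and multiparous 1, 2 and 7 lay above every MP-coded heart. The part of these markers in the Nfatc2 values was not tested between the codes. Virgin hearts, with Nfatc2 at 26.2 to 30.3 CPM, overlapped both codes.

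Rcan2 leaned the opposite way, with 739, 643, 620 and 610 CPM in the MP-coded and 594, 628, 578 and 525 CPM in the P-coded hearts. These overlapped through multiparous 2, and the log2 fold change was 0.17 (SE 0.08, 95% interval −0.0011 to 0.34, edgeR adjusted p = 0.457). Rcan1 measured 69.7 ± 8.8 CPM in MP-coded and 80.2 ± 11.7 CPM in P-coded hearts (SD, n = 4 each), with a log2 fold change of −0.20 (SE 0.11, edgeR adjusted p = 0.54). Without multiparous 7 it was −0.10 and without multiparous 6 −0.13, and that of Rcan2 was 0.105 without multiparous 3. The log2 fold changes of the other 6 members lay between −0.08 for Ppp3cb and 0.12 for Nfatc4, with adjusted p from 0.677 to 0.914 in edgeR. Without multiparous 3 the value was 0.03 for Ppp3ca, −0.13 for Ppp3cb and 0.19 for Nfatc4, and for Nfatc4 it was 0.08 without multiparous 2 and 0.06 without multiparous 6. For Nfatc3 it was −0.08 without multiparous 8.

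How the members varied with each other was examined over 16 libraries after the means of the multiparous and virgin groups were taken off. A difference between these groups could therefore not produce a correlation. Differences between MP-coded and P-coded hearts were not taken off, and the permutation did not keep the codes apart, so they can still add to one. Of 36 pairs, 4 passed at an adjusted p under 0.05 (permutation within groups, 100000 resamples, two-sided). The points share their library, its scaling and its mix of cells. Nfatc1 and Nfatc4 were the closest pair, with Pearson's r = 0.84 (permutation p = 5e-05, adjusted p = 0.0018) and Spearman's rho = 0.89 (permutation p = 4e-05, adjusted p = 0.00144). Within the multiparous hearts r was 0.91 and within the virgin hearts 0.79, and without multiparous 8 and virgin 1, the libraries farthest from the median, it was 0.86. This pair passed in all 16 sets that left out 1 library, and without scaling factors (r = 0.90).

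The beta catalytic subunit and the B subunit varied together, with r = 0.69 for Ppp3cb and Ppp3r1 (permutation p = 0.00388, adjusted p = 0.0349) and rho = 0.77 (permutation p = 0.00102, adjusted p = 0.0184). The value was 0.66 in multiparous and 0.73 in virgin hearts, and 0.56 without virgin 1 and virgin 6. Ppp3cb ran against Nfatc1 (r = −0.73, permutation p = 0.00206, adjusted p = 0.0252) and Nfatc4 (r = −0.74, permutation p = 0.0021, adjusted p = 0.0252). Their rho was −0.67 in each case (permutation adjusted p = 0.0728 each). For Nfatc1 r was −0.79 in multiparous and −0.71 in virgin hearts, and for Nfatc4 −0.95 and −0.55. Without virgin 1 and virgin 6 these became −0.63 and −0.64. The 3 pairs with Ppp3cb did not hold without scaling factors, where r was 0.31, −0.44 and −0.47 and the permutation adjusted p 0.607, 0.357 and 0.357. They passed in 5, 11 and 10 of the 16 sets that left out 1 library. Each code of the multiparous group holds 4 hearts, too few for a value of its own.

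**Figure D4:**
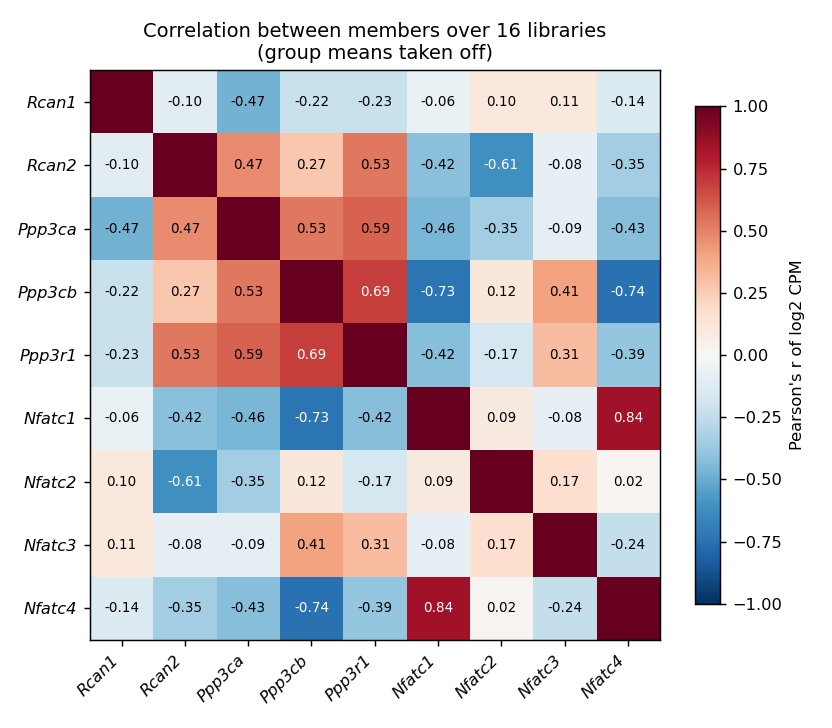
Pearson's r of log2 CPM for each pair of the 9 genes over 16 libraries, with group means taken off. Nfatc1 and Nfatc4 (0.84) and Ppp3cb with Ppp3r1 (0.69) have the highest values, and the row of Rcan1 holds no pair that passed.

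Across hearts, no pair of Rcan1 with another member passed, which in 16 libraries does not show that they vary apart. The r of Rcan1 with the other 8 members ran from −0.475 (Ppp3ca, permutation p = 0.064, adjusted p = 0.256) to 0.11 (Nfatc3). In virgin hearts it was −0.66 with Ppp3ca and −0.52 with Ppp3cb, and in multiparous hearts −0.32 and 0.1. Among 12440 tested genes with a mean of at least 1 CPM and a symbol that is not a predicted-gene name, those with the highest group-centred r over 16 libraries included the natriuretic peptide gene Nppb (r = 0.92), the bZIP repressor gene Nfil3 (0.90), the calcium-binding protein gene Cabp1 (0.89) and the small GTPase gene Rasl11b (0.89). These were picked as the highest of many, so their r is a description. In multiparous hearts the values were 0.94, 0.91, 0.98 and 0.83, in virgin hearts 0.90, 0.90, 0.86 and 0.92, and without the 2 libraries farthest from the median of Rcan1 0.84, 0.89, 0.82 and 0.84.

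Virgin 2 and virgin 3, the hearts with the most Rcan1, also held the most Nppb, at 293 and 356 CPM. Multiparous 6, with the least Rcan1, held the least Nppb, at 93.0 CPM, and multiparous 7, the highest of its group in Rcan1, was the highest in Nppb at 236 CPM. Between the groups, Cabp1 averaged 4.62 CPM (multiparous) and 6.02 CPM (virgin; log2 fold change −0.38, edgeR adjusted p = 0.219). Nfil3 averaged 12.0 against 14.8 CPM and Rasl11b 26.7 against 29.5 CPM.

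**Figure D5:**
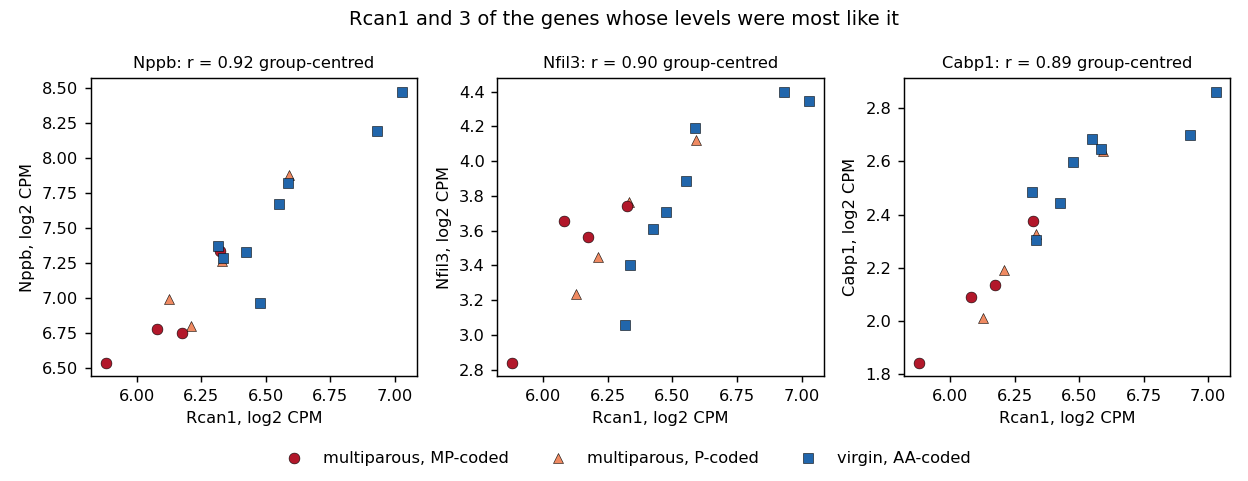
Log2 CPM of Rcan1 against 3 of the genes most like it over 16 libraries, Nppb, Nfil3 and Cabp1, with points shaped by library code. Virgin 2 and virgin 3 lie at the upper right and multiparous 6 at the lower left of each panel.

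The other members had companions of their own by the same measure. Rcan2 went with Marchf5 (r = 0.94), Eci2 (0.93), of fatty acid oxidation, and Ssr3 (0.92). Ppp3ca went with Idh1 (0.85), Stx17 (0.84) and Lztfl1 (0.82), Ppp3cb with Btbd1 (0.91), Ghr (0.89), the growth hormone receptor, and Ube2r2 (0.87), and Ppp3r1 with Rmnd5a (0.92), Tbc1d24 (0.91) and Heca (0.89). Nfatc1 went with the kinase genes Rps6ka1 (0.91) and Ikbkb (0.90) and with Rnf145 (0.90), which was also among those of Nfatc4 (0.89), beside Adcy7 (0.89) and Trim47 (0.89). Nfatc2 went with the chromatin genes Kmt2d (0.89) and Arid1a (0.85) and with Prrc2c (0.84), and Nfatc3 with Rnf214 (0.82), Map10 (0.81) and Cdk13 (0.77).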

How the data were processed

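RNA from the mid section of the left ventricle was sequenced in 16 libraries (stranded total RNA, ribosomal RNA removed, per the labels' protocols). Per the submitters' processing notes reads were handled with HTSeq 0.11.1, SAMtools 1.19.2, STAR 2.7.11b, FastQC 0.12.1, cutadapt 4.8, Trim Galore 0.6.10 and bcl2fastq 2.20, on GRCm38.p6. Which annotation and strand setting served for counting is not given in the sources used here. What the authors deposited are raw gene counts, in 1 table for each library. Rows that name no gene (26.5% to 33.1% of each total) stayed out of library sizes and tests. A count of 0 allows 3 counts, or 0.0131 to 0.0868 CPM by library, for counting error only.

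The main test was that of edgeR 4.0.16, run in R 4.3.3 (TMM factors, filterByExpr, quasi-likelihood F-test on group, Benjamini-Hochberg over all tested genes, threshold 0.05). SEs come from the F statistic. CPM values are TMM-scaled over 16 libraries. Log2 CPM for correlations had a prior count of 2. Coordinates, exon lengths and overlaps are from GENCODE M21 (GRCm38). On simulated data for the multiparous against virgin comparison (17813 genes), edgeR found 62.0% of the genes set 1.5-fold apart, 92.0% of those set 2-fold apart and 4 of 17467 left unchanged. Genes were drawn independently, without variation shared between them, and no smaller fold was set. These shares therefore do not cover differences as small as those of the members.

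The members, gene lists and tests were chosen with earlier results of these data known. Named are all members, their relatives, up to 3 genes of each pathway list by smallest p, and the genes most like each member, of which 1 is not reported here. Alternatives were DESeq2 1.42.0, limma 3.58.1 voom, other factors and filters, a replicate block, marker covariates, thinned counts, each code alone and leaving out each library. Leaving out virgin 1 and multiparous 8 together was chosen after seeing the data. All pairs of libraries of 1 group differed by more than sampling noise (lowest chi-square per degree of freedom 8.94 over 56 pairs).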

Additional observations from a re-analysis of the deposited data

Results flagged for a closer look

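Of 18 sets of 8 libraries (9 genes in 2 groups), 2 held a library far from the rest by the gap to its neighbour, and chance alone gives about 1 in 20 such sets. Ppp3ca measured 87.5 CPM in multiparous 3, where the other 7 multiparous hearts lay at or below 79.9 CPM. Multiparous 3 also had the highest Rcan2 (739 CPM) and the highest summed ventricular cardiomyocyte (54510 CPM) and neuron and glia markers (87.5 CPM) of its group. Nfatc1 measured 39.8 CPM in virgin 1, where the other 7 virgin hearts lay at or below 34.5 CPM. Virgin 1 had the lowest summed ventricular cardiomyocyte markers of its group (44780 CPM). Its endothelial (959 CPM), fibroblast (1206 CPM) and smooth muscle and pericyte sums (792 CPM) were also the lowest of the group. Of all 16 libraries it had the highest share of no feature (12.2%). The part of these markers and shares in either value was not tested.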

How the results depend on the processing

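No member was called in any of the 31 alternatives of the multiparous against virgin comparison, the replicate block included, and Rcan1, Rcan2, Ppp3cb, Nfatc1 and Nfatc4 kept their direction in all of them. The sign turned for Ppp3ca with the P-coded hearts alone (−0.0061), for Ppp3r1 without factors (0.0038), for Nfatc2 with the MP-coded hearts alone (−0.067) and the kidney covariate (−0.092), and for Nfatc3 with the MP-coded hearts alone (−0.0038), the kidney covariate (−0.017) and without virgin 1 and multiparous 8 (−0.0047). Between codes, the log2 fold change of Ppp3r1 ran from −0.021 to 0.055 and that of Nfatc1 from −0.0089 to 0.082 when 1 library was left out. The number of all genes called, 2, became 0 without factors, with the robust fit, with the MP-coded hearts alone and with either marker covariate, 56 without a filter, 130 in DESeq2, 97 with the P-coded hearts alone and 1 without virgin 1 and multiparous 8. It ran from 0 to 55 when 1 library was left out: 24 without multiparous 3, 23, 5, 33 and 55 without virgin 1, 2, 5 and 7, 1 without multiparous 7 or virgin 6 and 0 without any other. Where edgeR called 0 genes, 1104 to 1611 had an unadjusted p under 0.05. Between codes 22 genes became 7 without factors, 389 without a filter, 11 at a mean of at least 1 CPM, 295 in DESeq2 and 13 in limma voom, and ran from 3 (without multiparous 1 or 7) to 197 (without multiparous 5), with 7 without multiparous 2 or 3. The cause was not tested. Of the 4 correlated pairs, 1 passed without factors and 1 to 6 pairs passed with 1 library left out (1 without multiparous 2, 3 or 6 or virgin 1 or 6, and 2 without multiparous 5). The titles number the hearts within each group and name no pairing, and correlations cannot exclude one. Same-numbered libraries correlated from −0.11 to 0.29, 1 of 8 pairs lay over 0.1, and 4 of 16 libraries correlated best with their own number. With the replicate block 33 genes were called, and the log2 fold change of Rcan1 was −0.37 (edgeR adjusted p = 0.284). Thinned to the smallest library, the log2 fold change was 0.085 for Nfatc2 and 0.0090 for Nfatc3. The lowest count of a member in a library was 194.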
